A study of Danio rerio with 12 samples.

Results

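Rapamycin was compared with vehicle in apc-mcr zebrafish, with 6 of the 12 RNA-seq libraries of the series: 3 from apc-mcr larvae given rapamycin and 3 from apc-mcr larvae given vehicle. The apc-mcr larvae were homozygous for an allele of adenomatous polyposis coli (Apc) whose premature stop lies in the mutation cluster region of the gene, and both groups share it. Larvae were placed in 100 nM rapamycin or in vehicle (0.1% DMSO) at 24 hours post fertilisation (hpf) and were harvested at 48 hpf, with 20 whole embryos pooled in each replicate. Mutants were told by their body shape at 24 hpf, before the drug was added. The other 6 libraries are the WT groups given rapamycin or vehicle in the same way, which pooled wild-type and heterozygous siblings and are used here for levels and for the comparison of the 2 genotypes. Replicate numbers 1 to 3 are shared by the rapamycin and vehicle groups and are called pairs 1 to 3 here. RNA came from whole embryos, so fewer cells of a type and less RNA per cell cannot be told apart.

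Mechanistic target of rapamycin complex 1 (mTORC1) is a protein kinase that couples growth to growth factors and amino acids. Growth factor signals reach it through Akt, the Tsc1 and Tsc2 complex and the GTPase Rheb, amino acids reach it through the Rag GTPases at the lysosome, and Gsk-3, which works with Apc in the Wnt pathway, phosphorylates Tsc2. Active mTORC1 phosphorylates S6 kinase and the 4E-BP proteins, favours translation of mRNAs with a 5' terminal oligopyrimidine tract (TOP mRNAs, which encode ribosomal proteins and elongation factors), favours sterol, fatty acid and nucleotide synthesis, and holds back autophagy and the lysosome factor Tfeb. Rapamycin binds the protein FKBP12, and that pair binds mTOR and blocks much of the output of mTORC1. The files hold transcript counts only, with no measurement of phosphorylated S6 or 4E-BP, so whether mTORC1 was inhibited in these larvae was not tested here.

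The rapamycin libraries held 82364863, 77161843 and 73243315 estimated counts, against 69693340, 75689996 and 77584080 in the vehicle libraries, and between 24109 and 24269 genes had a count in each. The 20 most abundant genes took between 15.6% and 18.2% of the counts of these 6 libraries. Values below are normalised counts, scaled so that each of the 6 libraries stands at 75920017 counts, and gene names stand as the name sources give them, so some zebrafish genes are in capitals. Paired libraries resembled each other more than libraries of the same treatment did: over the 17335 genes with a mean of at least 100, the SD of the log2 difference was 0.216 to 0.248 between rapamycin and vehicle of one pair, and 0.306 to 0.391 between libraries of one treatment. The main difference among these 6 libraries was therefore between pairs, and the comparison was made within pairs.

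The apc-mcr label was checked with axin2, a negative feedback gene of the Wnt pathway. Scaled over all 12 libraries, axin2 stood at 13305, 12846 and 13463 in rapamycin mutants and 12734, 13746 and 13147 in vehicle mutants, against 3543, 3936 and 3348 in WT larvae with rapamycin and 3703, 4656 and 3992 in WT larvae with vehicle. Both mutant groups lay above all 6 WT libraries. APC itself, on the same scale, had 7045, 5717 and 5689.9 counts in rapamycin mutants and 7163, 7576 and 5420.2 in vehicle mutants, against 9806, 10156 and 4732 in WT larvae with rapamycin and 9376, 9437 and 9455 in WT larvae with vehicle. It was lower in vehicle mutants than in WT vehicle larvae (log2 fold change -0.50 ± 0.10 SE, edgeR adjusted p = 0.00373), and rapamycin and vehicle mutants overlapped (-0.12 ± 0.10).

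No gene passed the test for rapamycin against vehicle in mutants. With edgeR's quasi-likelihood test, the pair as a block and Benjamini-Hochberg adjustment, 0 of 22225 genes were called (0%), and the lowest adjusted p was 0.999. At an unadjusted p under 0.05 there were 734 genes, 3.3% of those tested, of which 355 had higher values under rapamycin and 379 lower values. Limma voom called 0 genes, with 727 at an unadjusted p under 0.05, and DESeq2 called 5 of 25164 (0.0199%), with 295. The median log2 fold change over all genes was 0.00, with pair medians of 0.00, 0.01 and 0.01. The scaling of the libraries centres most genes near 0, so these medians do not test a shift shared by all genes. Fold changes and limits here are relative to that scaling, and a change in total mRNA per embryo was not measured.

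Few large differences recurred in all 3 pairs. In 23.5% of genes the difference had one sign in all 3 pairs, 2740 genes with higher and 2492 with lower values under rapamycin. Groups of 3 libraries did not overlap in 965 genes (4.34%). Among the 17335 genes with a mean of at least 100, 19 genes were more than 2-fold higher and 35 more than 2-fold lower under rapamycin in pair 1, 14 and 34 in pair 2, and 20 and 23 in pair 3. No gene of these was past 2-fold in one direction in all 3 pairs, and 1, si:ch211-57b15.2, was more than 1.5-fold lower in all 3. It had 76.0, 53.9 and 97.9 counts under rapamycin and 143, 86.0 and 174 under vehicle (log2 fold change -0.81 ± 0.17 SE, edgeR adjusted p = 0.999). That gene was picked after its values were seen.

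The size of an effect that the data leave room for was read from the 95% interval of each gene's fold change, taking the bound farther from no difference as the size limit. The median limit over all genes tested was 1.27-fold in either direction, 75.1% had an interval inside 1.5-fold and 89.4% inside 2-fold. A test of equivalence with adjusted p placed 78.1% of genes inside 1.5-fold and 92.1% inside 2-fold. Limits were narrower in more abundant genes. Intervals are gene by gene, so among many genes some will not hold the true value. The fit draws much of each gene's spread from other genes, with 6.17 prior of 8.17 total degrees of freedom at the median. In genes that vary more between pairs than most, the limit can therefore be narrower than single pair differences.

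Among the 4890 genes with a mean under 100, the median limit was 1.94-fold, and 8.55% had an interval inside 1.5-fold and 53.5% inside 2-fold. Among the 9045 genes with a mean of 100 to 1000 the median limit was 1.29-fold, and 89.2% lay inside 1.5-fold. The 7372 genes with a mean of 1000 to 10000 and the 918 genes with a higher mean both had a median limit of 1.17-fold, with 99.1% and 98.9% inside 1.5-fold. Intervals that reached 2-fold were thus common among weakly expressed genes and rare among the others.

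To be called as the only such gene among 22225 tests, a gene needed a larger difference than its interval. At the median standard error of its class, that difference was 12.9-fold under a mean of 100, 2.60-fold from 100 to 1000, 1.84-fold from 1000 to 10000 and 1.81-fold above. At these median standard errors, a difference of 1.5-fold in a lone gene would therefore not be called by the adjusted test with these 3 pairs. Genes with a smaller standard error would need less.

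**Figure D1:**
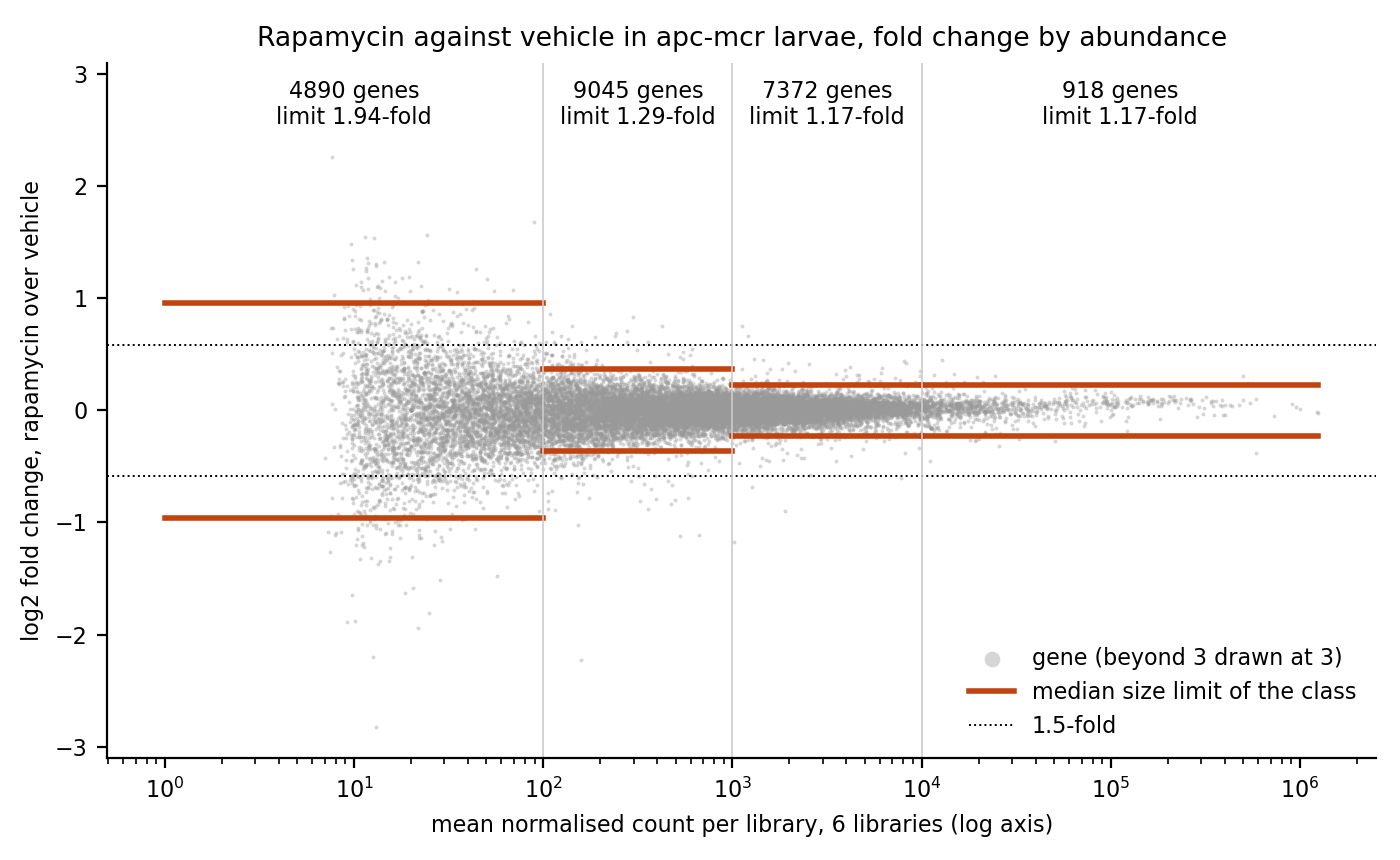
Fitted log2 fold change of rapamycin over vehicle (y axis) against the mean normalised count over the 6 apc-mcr libraries (x axis, log scale), with a grey point for each of 22225 genes. Red lines are the median size limit of each abundance class in both directions, 1.94-fold, 1.29-fold, 1.17-fold and 1.17-fold, and dotted lines mark 1.5-fold.

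The transcripts of the mTOR complexes differed little between rapamycin and vehicle mutants, and without one direction over the pairs. All 13 genes of that list were tested, 0 were called, the median log2 fold change was -0.04, and 12 had intervals inside 1.5-fold and all 13 inside 2-fold. The exception was prr5l, an mTORC2-binding gene with a limit of 1.99-fold. No member had one sign in all 3 pairs. MTOR, the kinase, had 2714, 2378 and 3023 counts in rapamycin mutants and 2782, 3428 and 2741 in vehicle mutants (log2 fold change -0.14 ± 0.12 SE). The low value of rapamycin replicate 2 beside a high vehicle replicate 2 gave a pair difference of -0.53 on the log2 scale, and the other pairs stood at -0.04 and 0.14. RPTOR, the scaffold that defines mTORC1, had 1384, 1842 and 1484 under rapamycin and 1399.8, 1778 and 1535 under vehicle, with an interval of 0.89 to 1.12-fold. RICTOR, which defines the other complex, mTORC2, is counted as a pair of genes of that name with limits of 1.15-fold and 1.29-fold. DEPTOR, an inhibitor of both complexes with 138, 188 and 116 counts under rapamycin and 150.0, 143 and 108 under vehicle, had a limit of 1.42-fold, and akt1s1 (Pras40, another inhibitor) one of 1.27-fold.

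The growth factor arm upstream of mTORC1 held 40 genes, from Igf1 and insulin receptors to Tsc1, Tsc2 and Rheb. None was called, none had an unadjusted p under 0.05, the median log2 fold change was -0.01, and 39 of 40 had intervals inside 1.5-fold. The exception was PIK3CD, a PI3-kinase catalytic subunit of blood cells in mammals, with 80.9, 80.0 and 108 counts under rapamycin and 59.8, 82.2 and 53.1 under vehicle and a limit of 2.04-fold. TSC2, the GTPase-activating protein that Gsk-3 phosphorylates, had 789, 982 and 956 counts under rapamycin and 694, 1283 and 879 under vehicle, so the vehicle values spanned all 3 rapamycin values. Its interval was 0.809 to 1.18-fold. The small GTPase gene rheb had 359.6, 470.1 and 394 under rapamycin and 401, 385 and 359 under vehicle, with an interval of 0.882 to 1.28-fold.

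The amino acid arm (Rag GTPases, Ragulator, the Gator complexes, Sestrins and folliculin) was the most narrowly bounded of the mTOR lists. All 27 genes had intervals inside 1.5-fold, the median limit was 1.18-fold and the median log2 fold change 0.00. The widest limit, 1.44-fold, belonged to FNIP1, a folliculin partner, with 363, 375 and 299.8 under rapamycin and 379, 551 and 301 under vehicle. The Sestrin gene sesn2, which senses leucine in mammals, had 2288, 1910.1 and 2201 under rapamycin and 1991, 1781 and 2298 under vehicle (limit 1.19-fold).

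Of the substrates and translation controls of mTORC1, 33 genes were tested and none was called. Of these, 32 had intervals inside 1.5-fold and all 33 inside 2-fold. The gene eif4ebp1 encodes a 4E-BP, which binds the cap-binding protein eIF4E until mTORC1 phosphorylates it, and its groups did not overlap. It had 5167, 5169.8 and 5266 counts under rapamycin and 4757, 4695 and 5011 under vehicle, a log2 fold change of 0.11 ± 0.06 SE that did not pass the test and a limit of 1.19-fold. S6 kinase gene rps6kb1b had 5869.9, 6161 and 6400.2 under rapamycin and 5221, 5881 and 5588 under vehicle (0.14 ± 0.06), and its paralog rps6kb1a had 1728, 1629.8 and 1716 under rapamycin and 1792, 1436 and 1947 under vehicle (-0.02 ± 0.09). The groups of both overlapped.

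RPS6, the ribosomal protein whose phosphorylation is the usual readout of S6 kinase, had 273128, 225665 and 212625 counts under rapamycin and 234348, 209155 and 235083 under vehicle and a limit of 1.21-fold. TFEB, the lysosome transcription factor that mTORC1 keeps out of the nucleus, had the lowest log2 fold change of the list, with 180.3, 193 and 137 under rapamycin and 216, 206 and 210.3 under vehicle. Its groups did not overlap, and its log2 fold change of -0.32 ± 0.15 SE did not pass the test (limit 1.58-fold). LPIN1, a phosphatidate phosphatase and mTORC1 substrate, was the one member with an unadjusted p under 0.05, with 967, 971 and 896 under rapamycin and 926, 756 and 747 under vehicle (0.23 ± 0.09, edgeR adjusted p = 0.999). LARP1, which binds TOP mRNAs, varied widely between pairs, with pair differences of -0.13, -0.69 and 0.43 and a limit of 1.45-fold. The autophagy kinase genes ULK1 and ulk1a had limits of 1.22-fold and 1.27-fold, and MAF1, the repressor of RNA polymerase III, one of 1.12-fold.

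The direct receptors of the drug belong to the FK506-binding proteins. FKBP12 is encoded by fkbp1aa and fkbp1ab, and fkbp1aa had 35636, 39225 and 34656 counts under rapamycin and 35197, 35396 and 37934 under vehicle, with an interval of 0.892 to 1.14-fold. For fkbp1ab the values were 635, 670.4 and 611 under rapamycin and 686, 568 and 595 under vehicle (limit 1.22-fold). Of the 19 genes, 17 had intervals inside 1.5-fold. One of the others was fkbp5, a glucocorticoid-induced member, with 1103, 886 and 1876 counts under rapamycin and 2796, 389.9 and 1466 under vehicle. Its pair differences of -1.34, 1.18 and 0.36 had no common sign, and it varied most between replicates of the vehicle group. Its interval lay inside 2-fold although pairs 1 and 2 each differed by more than that. The other was fkbp6, which is sparse here at 50.7, 73.2 and 20.6 counts under rapamycin and 28.3, 38.2 and 15.0 under vehicle (log2 fold change 0.78 ± 0.29, limit 2.73-fold).

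**Figure D2:**
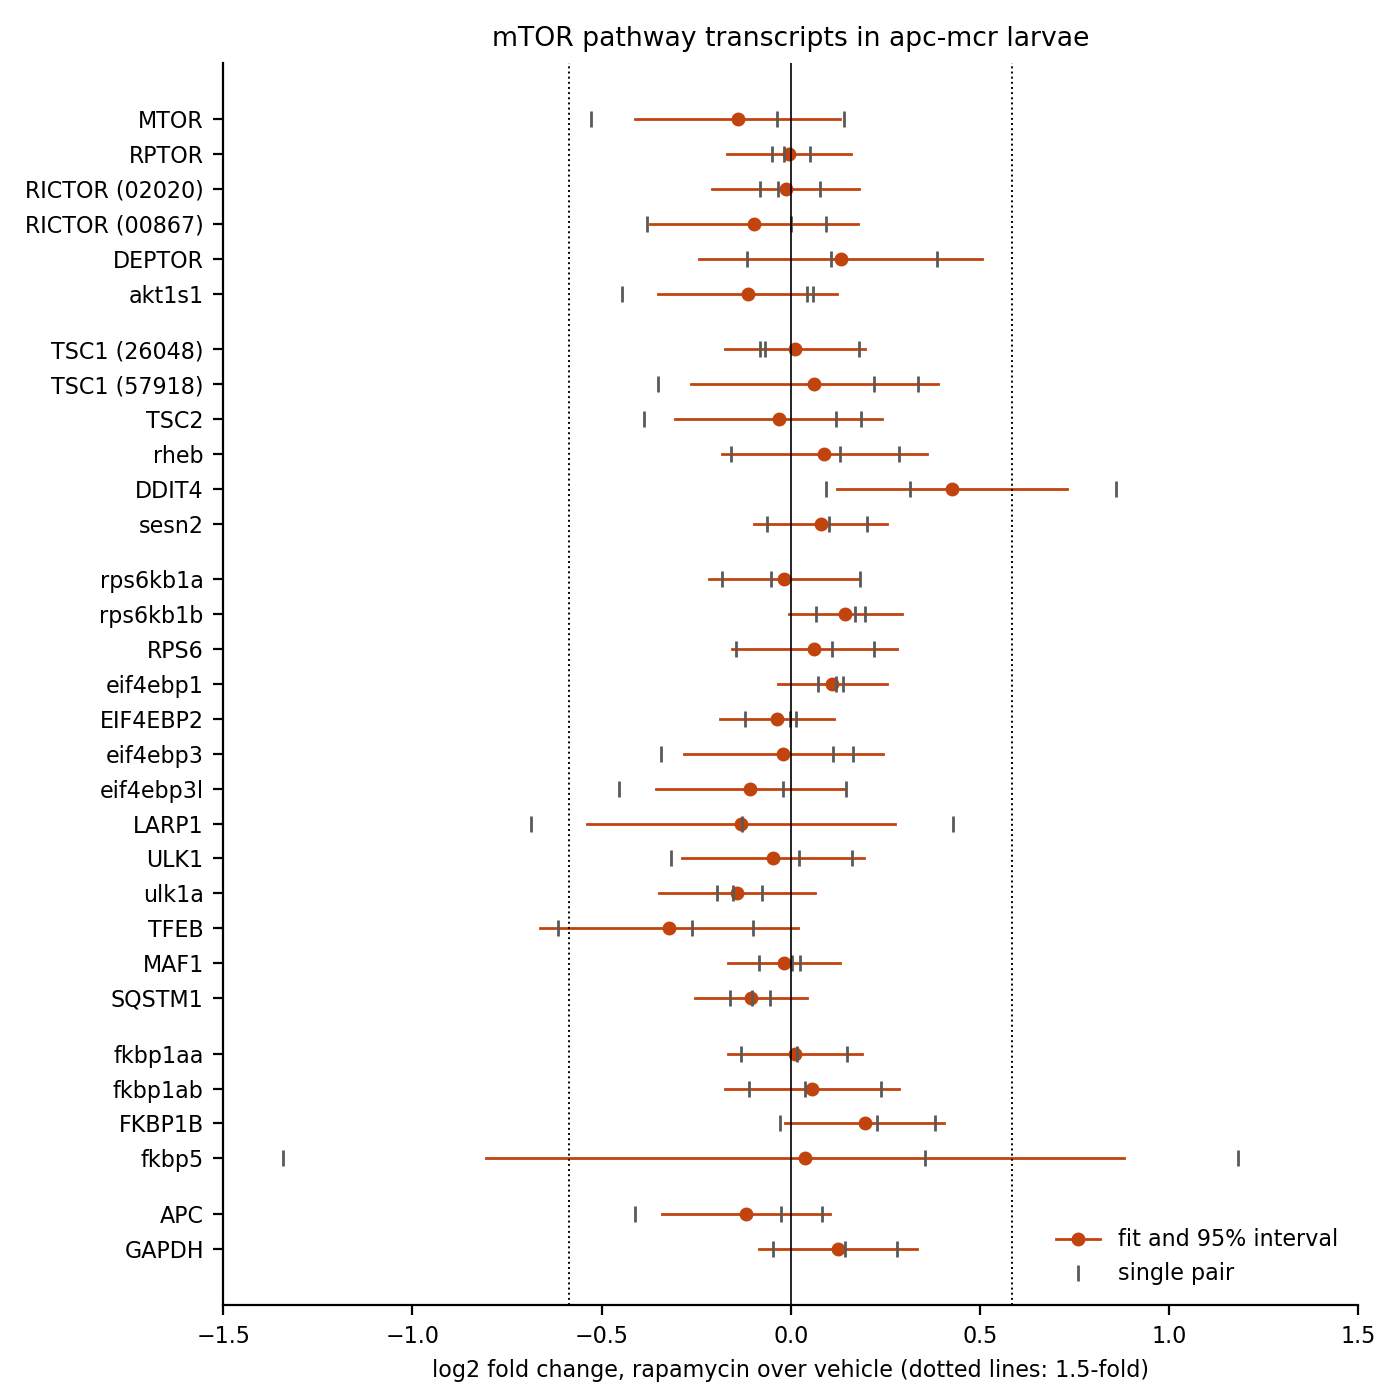
Log2 fold change of rapamycin over vehicle for transcripts of the mTOR pathway, the FK506-binding proteins, APC and GAPDH, with the fitted value (point), its 95% interval (line) and the 3 single pair differences (ticks). All intervals but those of DDIT4, TFEB and fkbp5 end inside the dotted 1.5-fold lines, and single pairs of LARP1 and fkbp5 lie apart on both sides of 0.

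Transcripts that mTORC1 governs mainly at translation were next examined. The 83 cytoplasmic ribosomal protein genes had a median log2 fold change of 0.07, with pair medians of 0.13, 0.21 and -0.13, so pairs 1 and 2 stood above 0 and pair 3 below. None was called, none had an unadjusted p under 0.05, and 82 of 83 had intervals inside 1.5-fold, the exception being the weakly expressed rps11l (limit 2.44-fold). RPLP0, an acidic stalk protein, had 408616, 362693 and 332351 counts under rapamycin and 352732, 325972 and 363888 under vehicle. Of the other TOP mRNAs, 29 were tested, with a median of 0.04 and 28 inside 1.5-fold. The elongation factor gene eef1a1l1 had an interval of 0.855 to 1.21-fold. PABPC1L, a poly(A)-binding protein gene at a limit of 2.87-fold, was the one TOP gene whose interval passed 1.5-fold.

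The 65 initiation factor genes had a median of 0.03 with 63 inside 1.5-fold. All 59 genes of ribosome biogenesis and RNA polymerase I had intervals inside 1.5-fold, with a median limit of 1.16-fold. Their median log2 fold change was 0.04, and 10 of them had higher values under rapamycin in all 3 pairs and 2 lower values, of 59, beside the 23.5% of all genes with one sign. FBL, the rRNA methyltransferase fibrillarin, was at 14741, 15928 and 16929 under rapamycin and 13935, 14850.2 and 15315 under vehicle (0.11 ± 0.06), and ncl, nucleolin, had a limit of 1.16-fold.

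The counts measure mRNA and not its translation, so a change in the translation of TOP mRNAs was not measured here.

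Lipid synthesis genes, which mTORC1 raises through Srebp factors, were bounded less narrowly. The 29 sterol synthesis genes had a median of 0.05 with pair medians of -0.06, 0.06 and 0.17, and 27 of 29 had intervals inside 1.5-fold. The regulator srebf2 had 1324, 1518 and 1691 counts under rapamycin and 1649.7, 2597 and 1453 under vehicle, with vehicle replicate 2 standing above the other 5 libraries (-0.29 ± 0.16, limit 1.58-fold). Of the 17 fatty acid genes, 13 lay inside 1.5-fold and 1 had an unadjusted p under 0.05. That gene was ELOVL6, a fatty acid elongase, with 2958, 1898 and 3969 counts under rapamycin and 2256, 1714 and 2437 under vehicle. Its values were higher under rapamycin in each pair, the groups overlapped, and the log2 fold change of 0.42 ± 0.10 SE had an edgeR adjusted p of 0.999. ACLY, which makes cytosolic acetyl-CoA, had a limit of 1.14-fold.

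Genes of amino acid stress, tRNA charging and nucleotide synthesis, which Atf4 and Myc link to mTORC1, followed. Of the 37 genes of the Atf4 response, 33 had intervals inside 1.5-fold and the median was 0.01. DDIT4 (Redd1), which restrains mTORC1 through Tsc2 in stressed cells, had 3488, 1314 and 2098 under rapamycin and 1920.3, 1056 and 1968 under vehicle, and pair 1 carried most of its log2 fold change of 0.43 ± 0.13 (pair differences 0.86, 0.31 and 0.09). CHAC1, a glutathione-degrading enzyme of the same response, had 15672, 14264 and 17128 under rapamycin and 12699, 12818 and 15572 under vehicle (0.20 ± 0.07). Neither passed the test, and both had higher values under rapamycin in all 3 pairs. So did 10 of the 37 genes in all, while 4 had lower values in all 3, beside the 23.5% of all genes with one sign. The lowest member was stc2b, at a log2 fold change of -0.25.

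All 19 cytoplasmic tRNA synthetase genes lay inside 1.5-fold, with a median limit of 1.15-fold. Of the 35 genes of nucleotide synthesis and the pentose phosphate path, 34 lay inside 1.5-fold. In all 3 pairs, 9 of the 35 were higher and 0 lower under rapamycin, and 3 had no overlap, beside 23.5% and 4.34% of all genes. The exception to the 1.5-fold bound was 1 of the pair of genes named RRM2 (ribonucleotide reductase). It had 9209.7, 9373 and 8898 counts under rapamycin and 7636, 8609 and 4627 under vehicle, and was not called. Each pair was higher under rapamycin, without overlap of the groups, and vehicle replicate 3 was the lowest library. TYMS, thymidylate synthase, had 2573, 2872 and 2876 under rapamycin and 2392, 2531 and 2342 under vehicle (0.19 ± 0.07), without overlap and without passing the test.

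Lysosome and autophagy genes are targets of Tfeb. The 69 lysosome genes had a median of -0.03, with 4 higher and 14 lower under rapamycin in all 3 pairs (one sign in 3 pairs was seen in 23.5% of all genes), and 65 had intervals inside 1.5-fold. The cathepsin L gene ctsla had 124133, 96841 and 119196 counts under rapamycin and 127807, 108458 and 151174 under vehicle (-0.18 ± 0.09), and ctslb, a paralog of the hatching gland, had 20716, 14527 and 12831 under rapamycin and 19706, 13064 and 7576 under vehicle (0.33 ± 0.12), with vehicle replicate 3 the lowest library. The 48 autophagy genes had a median of 0.00, and 44 lay inside 1.5-fold and all 48 inside 2-fold. SQSTM1, the autophagy receptor p62, was lower under rapamycin in each pair, at 3769, 3625 and 3213 under rapamycin and 3916, 3891 and 3589.9 under vehicle (-0.11 ± 0.06, limit 1.19-fold), and did not pass the test.

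Energy metabolism and growth lists had like limits. Of 55 glycolysis and hypoxia genes, 50 lay inside 1.5-fold, and GAPDH, a glycolytic enzyme, had an interval of 0.944 to 1.26-fold. Of the 93 nuclear respiratory chain genes 90 lay inside 1.5-fold, as did all 73 mitochondrial ribosomal protein genes. In pair 2 their medians were 0.19 and 0.15 and that of the cytoplasmic ribosomal proteins 0.21, and in pair 3 the same medians were -0.09, -0.02 and -0.13. In pair 1 they were 0.04, 0.01 and 0.13, so the 3 medians were above 0 in pairs 1 and 2 and below 0 in pair 3. Whether RNA quality or another property of the libraries took part was not tested.

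Of 46 cell cycle and replication genes, 43 lay inside 1.5-fold, with a median of 0.04. PCNA, the sliding clamp of replication, had 24832, 22525 and 25611 under rapamycin and 23192, 23544 and 21287 under vehicle (limit 1.22-fold), and the proliferation marker mki67 a limit of 1.17-fold. Of 28 p53 response genes 23 lay inside 1.5-fold. The death receptor gene fas had 109, 79.0 and 94.8 counts under rapamycin and 118, 114 and 170.2 under vehicle, without overlap, at -0.50 ± 0.19 and a limit of 1.92-fold.

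Of the insulin, Igf and Foxo list, IGF1 stood lowest. IGF1, the growth factor ligand, was sparse, with 20.5, 24.1 and 29.9 normalised counts in rapamycin mutants and 51.1, 38.2 and 58.1 in vehicle mutants. The groups did not overlap and each pair was lower under rapamycin, with log2 differences of -1.28, -0.65 and -0.94, and the log2 fold change of -0.98 ± 0.29 SE had an unadjusted p of 0.00986 and an adjusted p of 0.999 in the edgeR fit. Its interval ran between 0.318 and 0.809-fold. Of the 31 genes tested in the list, 27 lay inside 1.5-fold, and TXNIP, a Foxo and glucose-responsive gene, had a limit of 1.22-fold.

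**Figure D3:**
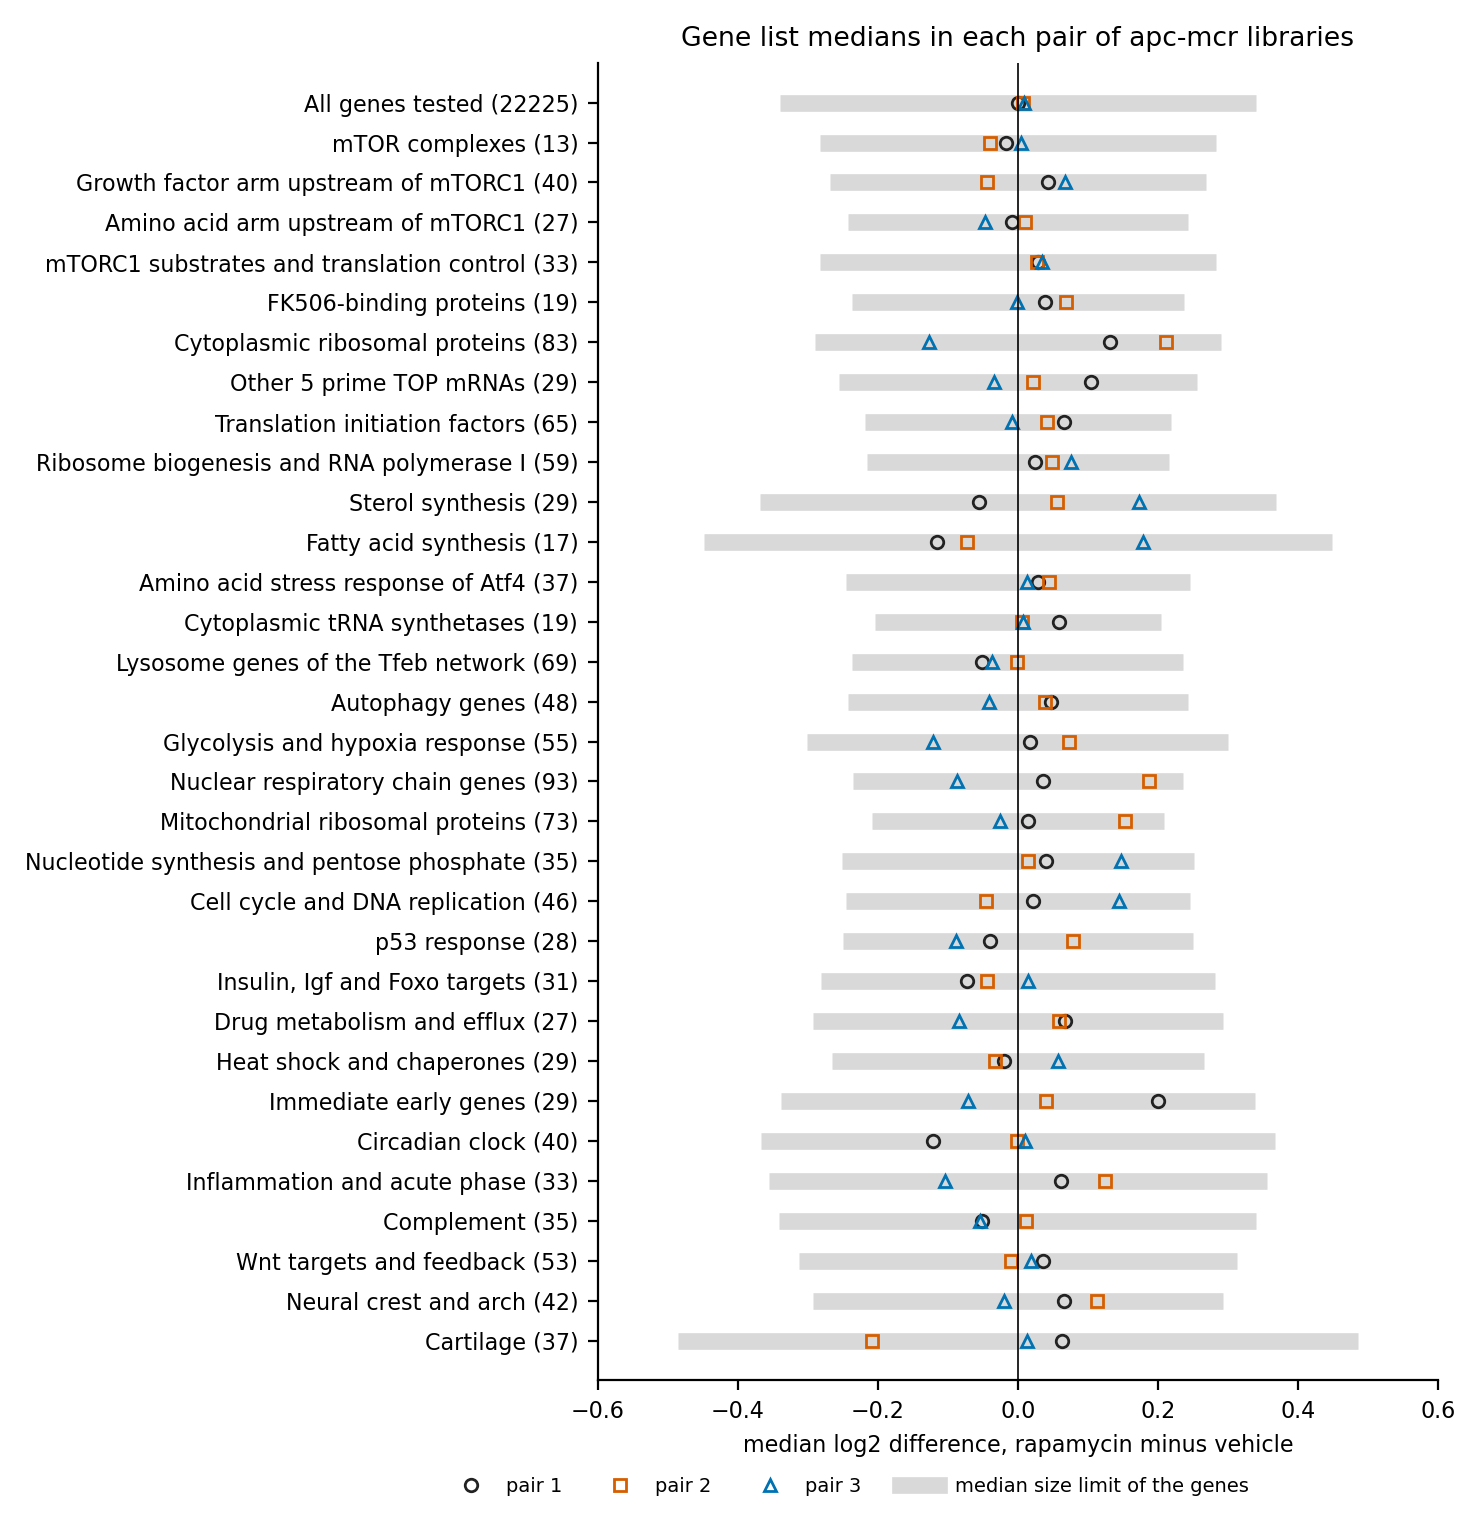
Median log2 difference of rapamycin minus vehicle over the genes of each list in pairs 1, 2 and 3 (open symbols), with the number of genes tested after each name. Grey bars span the median size limit of single genes of the list. The largest pair medians were 0.21 (pair 2, cytoplasmic ribosomal proteins) and -0.21 (pair 2, cartilage). The grey bars give the scale of single genes and are no interval of a list median.

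The series was made around the transcripts that loss of Apc alters, so the levels of 62 tested genes that match names given for this in the study's text, paralogs included, were followed under rapamycin. These genes were chosen on these same libraries, so their mutant levels are a description. Among them 41 were over 2-fold higher and 8 over 2-fold lower in vehicle mutants than in WT vehicle larvae. None of the 62 was called for rapamycin against vehicle in mutants, and 2 had an unadjusted p under 0.05, beside 3.3% of all genes tested. Of the 62, 50 had intervals inside 1.5-fold and 58 inside 2-fold. The rapamycin and vehicle mutants did not overlap in 1 gene of the 62, nkd3, beside 4.34% of all genes tested. All 41 raised genes had the 3 rapamycin mutants above the 3 WT vehicle libraries and all 8 lowered genes had them below. Over all 22841 genes, picked or not, 46.2% had no overlap in that comparison. The 41 and 8 genes were picked by their difference from the same WT vehicle libraries. Their counts were therefore largely set by the choice and test nothing. The vehicle mutants enter both the choice of the 41 and 8 genes and the comparison with rapamycin mutants. The WT vehicle libraries enter both that choice and the comparison of rapamycin mutants with WT. The values below therefore stand side by side.

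Most of the named feedback inhibitors of Wnt signalling had narrow limits for rapamycin over vehicle, and APCDD1 had a wide one. The values here are scaled over all 12 libraries, and the fold changes and limits are those of the 6 mutant libraries. The secreted antagonist gene wif1 had 30904, 27565 and 30971 counts in rapamycin mutants, 31190.0, 24986 and 35593 in vehicle mutants and 2604, 3701 and 2461 in WT vehicle larvae, and rapamycin over vehicle was -0.02 ± 0.08 with a limit of 1.15-fold. For dkk1b, a secreted blocker of the Lrp5/6 coreceptors, the values were 16793, 14847 and 15246 in rapamycin mutants, 13486, 12651 and 16592 in vehicle mutants and 596, 1225 and 446 in WT vehicle larvae (limit 1.27-fold). The Wnt-deacylating enzyme gene notum1a stood at 23093, 13513 and 26516 in rapamycin mutants, 25184, 15814 and 24273 in vehicle mutants and 745, 1543 and 874 in WT vehicle larvae, and the interval of rapamycin over vehicle was 0.831 to 1.09-fold. Rapamycin and vehicle mutants overlapped in each, and both stood far above the WT values. For axin2 and nkd1, intracellular feedback genes, the limits were 1.12-fold and 1.11-fold. The antagonist dkk2 had a limit of 1.29-fold. APCDD1, a Wnt-inducible membrane antagonist, had 165, 147 and 174 counts in rapamycin mutants and 163, 179.7 and 260.4 in vehicle mutants on the 6-library scale, with a log2 fold change of -0.29 ± 0.16 SE and a limit of 1.57-fold.

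The whole list of Wnt targets and feedback genes had 53 tested members, of which 48 lay inside 1.5-fold and 2 had an unadjusted p under 0.05. One was nkd3 (ENSDARG00000013174, 1 of 3 tested genes of that name), an nkd1 paralog, with 1593, 1538 and 1557 counts in rapamycin mutants and 1363, 1327 and 1338 in vehicle mutants, a gap without overlap at 0.22 ± 0.07 SE (edgeR adjusted p = 0.999). CTNNB1, beta-catenin, had a limit of 1.24-fold, and myca, a Myc paralog raised in the mutants, had one of 1.19-fold. The polycomb gene cbx7a had 7053, 7108 and 6560.1 in rapamycin mutants, 6880.1, 7044 and 7039.6 in vehicle mutants and 145, 629 and 141 in WT vehicle larvae, with a limit of 1.12-fold.

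Cytokine, acute phase and complement genes raised in the mutants differed widely in their limits. The interleukin gene il11a had 507, 534 and 822 counts in rapamycin mutants and 634, 454 and 926 in vehicle mutants, against 2.75, 28.3 and 2.74 in WT vehicle larvae, and its limit was 1.28-fold. The leptin gene lepa, a cytokine-like hormone induced in injured zebrafish tissue, was, with nkd3, 1 of the 2 genes of the 62 with an unadjusted p under 0.05 (0.0056, edgeR adjusted p = 0.999). It had 375, 442 and 547 in rapamycin mutants, 292, 322 and 448 in vehicle mutants and 1.84, 19.8 and 1.82 in WT vehicle larvae, with the rapamycin library above the vehicle library of each pair (0.37 ± 0.10). Its 2 mutant groups overlapped.

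The feedback gene socs3b, downstream of Stat3, had 6093, 7263 and 5761 in rapamycin mutants, 5498, 6947 and 5839.8 in vehicle mutants and 444, 933 and 398 in WT vehicle larvae (limit 1.16-fold). The name socs3a belongs to a pair of near-identical gene records with almost the same counts, each with a limit of 1.18-fold, so both, which are among the 62, amount to 1 uncertain measurement. The complement component gene c3a.1 had 103018, 132557 and 111539 in rapamycin mutants, 102842, 144937 and 117111 in vehicle mutants and 39826, 44780.1 and 40652 in WT vehicle larvae (limit 1.18-fold). Its paralogs c3a.3 and c3a.2, at log2 fold changes of -0.17 ± 0.08 and -0.26 ± 0.12, were not called. Of the 35 complement genes tested 24 lay inside 1.5-fold and 29 inside 2-fold, and of 33 inflammation and acute phase genes 22 lay inside 1.5-fold and 31 inside 2-fold.

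**Figure D4:**
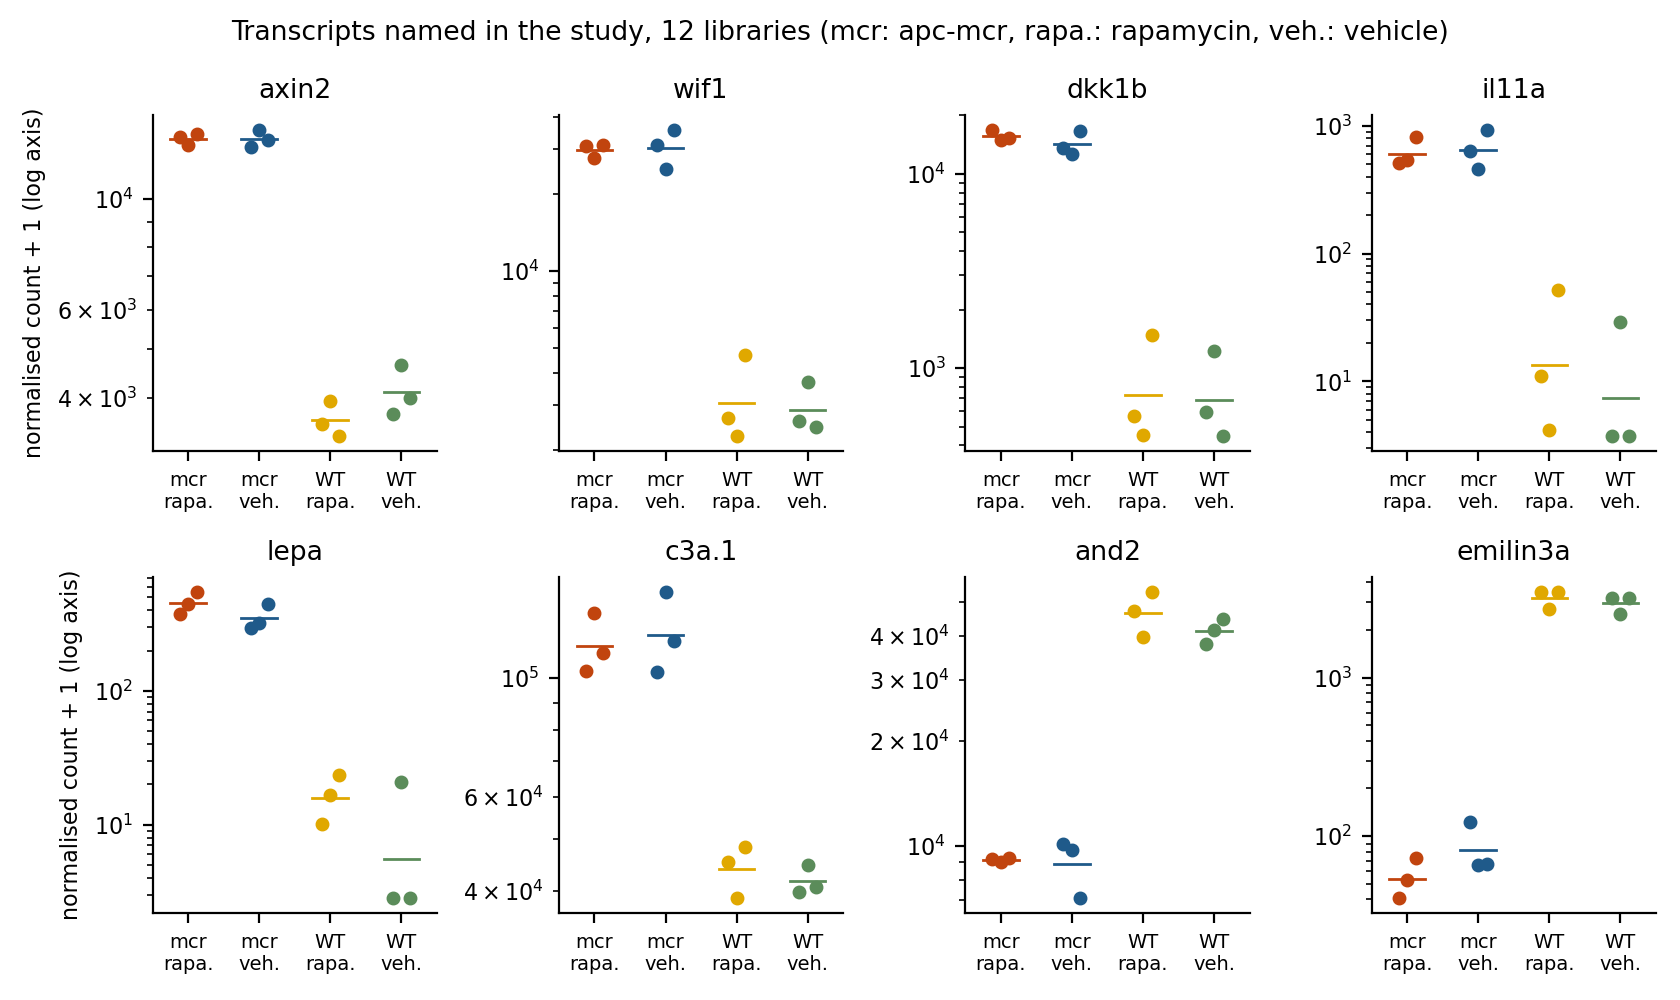
Normalised counts plus 1 (log axis, scaled over 12 libraries) of 8 transcripts in apc-mcr larvae with rapamycin, apc-mcr larvae with vehicle, WT larvae with rapamycin and WT larvae with vehicle, a point for each library and a line at the mean of the logs. The first 2 groups overlap in every panel, and in every panel all 3 libraries of both stand apart from both WT groups.

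All 8 genes that were over 2-fold lower in vehicle mutants than in WT vehicle larvae were below the WT vehicle level in rapamycin mutants too. Both comparisons use the same WT vehicle libraries. The actinodin gene and2 of the fin fold had 9201, 9002 and 9229.7 counts in rapamycin mutants, 10166, 9738 and 7106 in vehicle mutants and 37935, 41601 and 44595 in WT vehicle larvae (limit 1.22-fold). The notochord and arch matrix gene emilin3a had 39.8, 51.9 and 72.1 in rapamycin mutants, 122, 65.0 and 65.9 in vehicle mutants and 3152, 2513 and 3193 in WT vehicle larvae. Its log2 fold change for rapamycin of -0.59 ± 0.33 SE carried the widest limit of the 62, 2.54-fold. The homeobox gene gsc, of the arch mesenchyme, had 78.6, 104 and 49.4 in rapamycin mutants, 122, 82.4 and 80.4 in vehicle mutants and 985, 892 and 902 in WT vehicle larvae (limit 1.84-fold). Neural crest and arch genes as a list lay inside 1.5-fold in 39 of 42.

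Cartilage was the pathway list with the widest limits, at a median of 1.40-fold, and 23 of 37 genes lay inside 1.5-fold. Its pair medians were 0.06, -0.21 and 0.01, and the summed counts of the list, rapamycin over vehicle, were 1.03, 0.822 and 1.23-fold in pairs 1, 2 and 3. The collagen gene col2a1a, the main cartilage collagen, had 2507, 6661 and 6865 counts under rapamycin and 2003, 9697 and 3411 under vehicle, and vehicle replicate 2 stood above the other 5 libraries. The type XI collagen gene col11a2 had 849.8, 1501 and 1740.2 under rapamycin and 588, 2422 and 797 under vehicle, with vehicle replicate 2 again the highest (0.31 ± 0.28, limit 1.92-fold). In pairs 1 and 3 both were higher under rapamycin and in pair 2 lower.

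Markers of 15 tissue and cell classes were followed, since whole embryos can differ in the share of a tissue. Between 14 and 46 markers of each class were tested, 0 were called, and the class medians lay between -0.05 (neurons) and 0.09 (yolk syncytial layer and gut) on the log2 scale. All 25 skeletal muscle, 31 neuronal and 17 erythroid markers had intervals inside 1.5-fold. Pancreas was the widest, with 8 of 14 inside 1.5-fold and 12 inside 2-fold.

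At an unadjusted p under 0.05 the liver list had 3 higher and 3 lower members of 25, beside 3.3% over all genes. The yolk and gut list, which also holds the hatching gland gene ctslb, had 4 higher of 20. The epidermal list had 5 higher of 33, the lens list 4 lower of 46, and the erythroid list 3 higher and 1 lower of 17. The retina list had 3 lower of 25 and the pronephros and ionocyte list 3 lower of 28. Skeletal muscle, cardiomyocyte and glial lists had 0. Epidermal markers had a median of 0.00, with 6 higher and 5 lower under rapamycin in all 3 pairs. Erythroid markers went both ways, with 4 higher and 3 lower under rapamycin in all 3 pairs and gata1a lowest at -0.24. Among the erythroid markers alas2, the first enzyme of haem synthesis in red cells, had 16355, 14020.2 and 15521 under rapamycin and 12924, 12453 and 13468 under vehicle, without overlap (0.24 ± 0.07). Of the lens markers CRYBB1, a beta crystallin, had 19492, 17601 and 30755 under rapamycin and 23301, 20552 and 42666 under vehicle, with all 3 pairs lower and replicate 3 the highest in both groups (-0.32 ± 0.08). The lens list as a whole had a median of -0.02. Its pair medians were -0.05, 0.14 and -0.14, so in pair 2 it ran against CRYBB1. Pigment markers also went both ways, with 4 higher and 7 lower of 22 in all 3 pairs and a median of -0.05. Their groups did not overlap in 5 of 22, beside 4.34% of all genes. The pigment enzyme TYRP1, which acts in melanin synthesis, had 19704, 19616 and 21193 under rapamycin and 22189, 21868 and 25163 under vehicle, without overlap (-0.19 ± 0.07). None of these passed the edgeR test, where each had an adjusted p of 0.999.

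The 10 named genes with the lowest unadjusted p were chosen by that p and by one sign in all 3 pairs, so their values describe and do not test. Groups overlapped in 9 of the 10. The gene si:dkey-9l20.3 had 3680.0, 5263 and 9787 counts under rapamycin and 6478, 7695 and 13500.3 under vehicle, a log2 fold change of -0.61 ± 0.08 with each pair lower and the groups overlapping. The gene ENSDARG00000087345 had 232, 439 and 507 counts under rapamycin and 341, 936 and 1519 under vehicle (-1.11 ± 0.17), the only one of the 10 past 2-fold. FABP2, the intestinal fatty acid-binding protein, had 4818, 5128 and 4144 under rapamycin and 3920.0, 3927 and 2994 under vehicle (0.38 ± 0.07), and was the only one of the 10 without overlap.

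The actin gene actc1c (0.42 ± 0.07), the serpin gene serpina1l (0.45 ± 0.09), the galactosyltransferase gene b4galt5 (0.69 ± 0.13) and the cullin-related CACUL1 (0.71 ± 0.14) were higher under rapamycin in each pair. DAO, D-amino acid oxidase, (-0.46 ± 0.08), the relaxin receptor gene RXFP2 (-0.57 ± 0.11) and the arrestin-domain gene ARRDC3 (-0.35 ± 0.07) were lower in each pair. Pairs could differ far more than treatments within them, as in RXFP2. It had 584, 16.4 and 831 counts under rapamycin and 911, 30.6 and 1119 under vehicle, with replicate 2 the lowest in both. DESeq2 called 5 of the 10, si:dkey-9l20.3, ENSDARG00000087345, actc1c, DAO and serpina1l, at DESeq2 adjusted p between 3.95e-06 and 0.0361, and in the edgeR fit each had an adjusted p of 0.999.

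**Figure D5:**
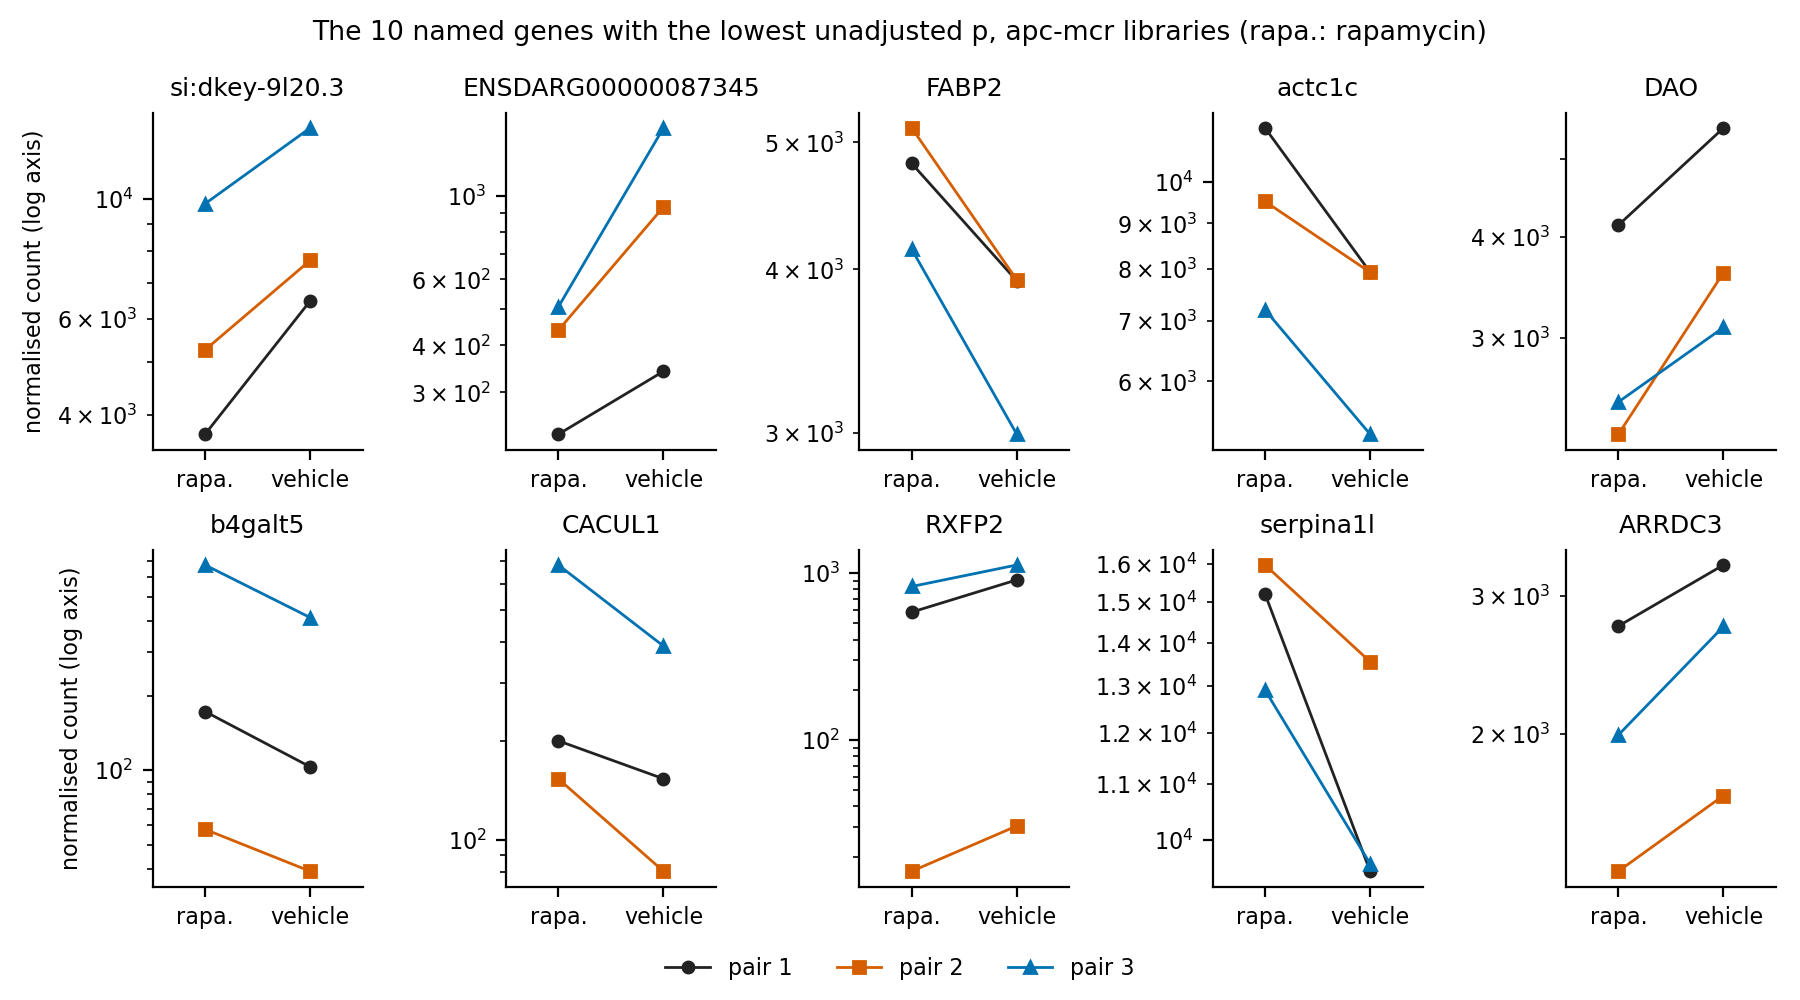
Normalised counts (log axis) of the 10 named genes with the lowest unadjusted p in rapamycin and vehicle libraries of apc-mcr larvae, with a line joining the libraries of each pair. Lines slope one way within each gene, since the rule asked for that, and in 9 of the 10 genes the groups overlap.

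The number of genes called changed most when replicate 2 was left out. Without replicate 2, the remaining 2 pairs gave 114 called genes of 22276 (0.512%), 47 higher and 67 lower under rapamycin, with 1487 at an unadjusted p under 0.05. Without replicate 1 there was 1 called gene, ENSDARG00000087345, and without replicate 3 there was 1, EMC4, a subunit of the membrane protein insertion complex of the endoplasmic reticulum. Of the 111 genes called without replicate 2 that had a value in pair 2, 60 differed there in the direction of the other pairs. Signed in that direction, their median pair 2 difference was 0.02 on the log2 scale. Over the 17335 genes with a mean of at least 100, the differences of pairs 1 and 3 correlated at 0.077. Pairs 1 and 2 correlated at 0.005 and pairs 2 and 3 at -0.154. These 114 include 5 cartilage genes (col2a1a, col9a1b, col9a2, col9a3 and col11a2, all higher under rapamycin), the nucleotide synthesis genes CAD, RRM2 and GART, and the liver genes agt, ces3 and serpina1l, as 3 of 25 liver, 3 of 35 nucleotide and 5 of 37 cartilage genes. CAD, which begins pyrimidine synthesis, had 8606, 8003 and 8149 counts under rapamycin and 6309, 8742 and 6151 under vehicle, so pair 2 ran against the other 2 pairs. For agt, angiotensinogen, the counts were 1152, 2539 and 2535 under rapamycin and 2189.9, 2583 and 4384 under vehicle, with a pair 2 difference near 0. These genes were named after their values were seen, and the cause of the difference of pair 2 was not tested.

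The response of WT larvae to rapamycin was set against that of the mutants with all 12 libraries. The difference of the 2 responses was called in 0 of 22841 genes (0%) by edgeR, with 662 at an unadjusted p under 0.05, and in 7 by DESeq2, with 787. In WT larvae 0 genes were called in the same edgeR fit, with 2404 of the 22841 at an unadjusted p under 0.05. For the mutants that 12-library fit also called 0 genes, with 249 at an unadjusted p under 0.05. WT rapamycin replicate 2 held 51692772 counts, with 28.3% of them in its 20 most abundant genes, against at most 19.4% in the other 11 libraries, and its part in the WT values was not tested. The median log2 fold change of the cytoplasmic ribosomal protein genes was 0.07 in mutants (6 libraries) and 0.22 in WT larvae (12 libraries), and that of the mitochondrial ribosomal protein genes 0.05 in mutants and 0.25 in WT larvae. Summed cytoplasmic counts were 8132660, 7174980 and 11551200 in WT rapamycin larvae and 8077340, 7656110 and 7250360 in WT vehicle larvae. Summed mitochondrial list counts were 166026, 153173 and 262077 with rapamycin and 164229, 163664 and 163189 with vehicle. In both lists WT rapamycin replicate 3 stood above all other WT libraries, and its part in these medians was not tested. For cartilage the medians were 0.00 in mutants and -0.29 in WT larvae, and for the mTOR complexes -0.04 in mutants and -0.07 in WT larvae. Summed cartilage counts were 214260, 212312 and 252269 in WT rapamycin larvae and 209848, 251636 and 268246 in WT vehicle larvae, so those groups overlapped. No gene of these lists was called for the difference.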

How the data were processed

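Whole apc-mcr and WT zebrafish were sequenced as poly(A)-selected, stranded libraries in 4 groups of 3. The deposited values are estimated counts per gene, and the submitters' processing notes name Salmon and the GRCz10 build, while the study's text names STAR for read mapping. The sources name depths of different size for the reads, so depth is given as the counts in the files. The deposited estimated counts are whole numbers, so no further rounding was needed, no row lacked a gene ID, and 486 of 25902 genes had no count.

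EdgeR 4.0.16 (R 4.3.3) was run on the 6 apc-mcr libraries with TMM factors, filterByExpr (minimum count 10), replicate number as a block and the quasi-likelihood test, and p-values were adjusted by Benjamini-Hochberg over 22225 genes at 0.05. The interval of a fold change used the fit's standard error and t quantile. The fit was tested on simulated data. Pair differences used log2(normalised count + 1). Pairing came from the replicate numbers of the labels, and the study names 3 independent clutches. Deviations from group means correlated at 0.334 to 0.414 within pairs, so the numbers were taken to pair the libraries. Between different numbers the correlations were -0.284 to -0.135. Deviations from a group mean add up to 0, so these negative values follow from the positive ones and add no separate support. No 2 libraries agreed within sampling noise (chi-square per gene 28.6 or more). With 3 pairs an exact sign permutation of a single value cannot go below a two-sided p of 0.25, so none is given.

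Names came from gene tables that accompany the study (1743 and 205 IDs) and from an Ensembl name table (20992 IDs), and 2962 IDs had none. No coordinates or sequences are given, as an annotation of the files' build was not used here. The 46 lists (31 pathways, 15 tissue classes) and the genes followed were chosen with earlier results of these data known. Named genes were any called gene, genes called by DESeq2 or with 12 libraries, the 10 lowest unadjusted p among genes with a name, a mean of at least 100 and one sign in 3 pairs, a set of mTOR pathway genes, the 2 most abundant and 2 lowest-p members of each list, and genes the study's text names in mutants. Members named for a wide limit (prr5l, rps11l, PABPC1L), si:ch211-57b15.2, col2a1a, CAD and the other genes called only without a replicate were named after their values were seen. Alternatives were fits without the block, with 12 libraries, with limma voom (limma 3.58.1) or DESeq2 1.42.0, other size factors and count filters, 90% intervals, an equivalence test and leaving out replicates or single libraries.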

Additional observations from a re-analysis of the deposited data

How the results depend on the processing

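Rapamycin against vehicle in apc-mcr larvae gave 0 called genes with RLE or upper-quartile factors, with both other count filters, with limma voom, with 12 libraries with or without the block, and with the 6 libraries and no replicate block (0 called, 167 at an unadjusted p under 0.05). DESeq2 called 5 genes. Leaving out a whole replicate gave between 1 and 114 genes, 114 being without replicate 2, and leaving out single libraries without the block gave 0. The difference between mutant and WT responses gave 0 called genes without the block and without any replicate, and 7 with DESeq2.

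From means of 100 upward the median size limits were widest with 12 libraries and no block. With 12 libraries and no block they were 1.46-fold over all genes, 1.49-fold for means of 100 to 1000, 1.297-fold for 1000 to 10000 and 1.32-fold from 10000, and with 12 libraries and the block 1.27-fold from 10000. Leaving out 1 replicate, or 1 library without the block, they ran from 1.29 to 1.44-fold over all genes, 1.32 to 1.47-fold for means of 100 to 1000, 1.18 to 1.29-fold for 1000 to 10000 and 1.19 to 1.28-fold from 10000. Without the block 65.6% of genes, and with DESeq2 67.6%, had intervals inside 1.5-fold, and over all alternatives the share ran from 54.6% to 80.0%. The fits with 12 libraries share 1 estimate of the spread with the WT groups; the cause of their wider limits was not tested. Leaving out 1 library of any replicate but rapamycin 3 or vehicle 2 gave 1.43 to 1.44-fold over all genes. For means under 100, where the limit was 1.94-fold, DESeq2 gave 2.38-fold, 12 libraries without the block 2.21-fold, no replicate block 2.09-fold, and leaving out replicates or libraries 2.16 to 2.39-fold.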
